A study of Sus scrofa with 23 samples.

Results

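The 10 genes described here, COL1A1, COL1A2, COL3A1, FN1, SPARC, FBN1, ACTA2, S100A4, VIM and LGALS1, are genes that connective tissue fibroblasts express strongly. Their rows were taken by Ensembl identifier from a table of 8603 pig genes, and all 10 were found. The study sequenced RNA from pig oocytes and embryos before implantation and compared embryos made by somatic cell nuclear transfer with embryos conceived in the sow. The table holds 23 libraries, with 1 library per condition and no replicate, so no difference below was tested and every interval covers counting error only.

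Nuclear transfer embryos of the NT-LW group received nuclei from ear fibroblasts of a Laiwu boar and those of the NT-D group from ear fibroblasts of a Duroc boar. Both boars were 1 year old. The nuclei of each clone group stand for 1 animal, and the clone libraries pooled about 5 embryos or more. A whole fibroblast was placed beside each enucleated oocyte and fused with it by electric pulses, so that its cytoplasm entered together with its nucleus, and the clones were then cultured in vitro. Recipient oocytes of both clone groups were in vitro matured oocytes of hybrid sows freed of cumulus cells, and the library of such oocytes is called NT-D-OC. IV-D embryos were flushed from Duroc sows inseminated with the same Duroc boar, and IV-D-OC holds oocytes matured in vivo in Duroc sows 2 years old. Stages are written 1C, 2C, 4C and 8C for 1-cell to 8-cell embryos, MO for morulae, IT for the piece of a blastocyst that holds the inner cell mass with some trophectoderm, and TE for the piece of pure trophectoderm. Clone and in vivo embryos thus differed in nucleus, oocyte donor, maturation, culture and sex, since clones of a boar are all male, and these cannot be told apart.

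Fibroblasts build and maintain the extracellular matrix. They secrete fibrillar collagens, fibronectin, fibrillin and the collagen-binding protein SPARC, and hold their shape with vimentin filaments and, when activated, with smooth muscle actin. The mature oocyte transcribes little, and the embryo lives on stored maternal RNA until its own genome is activated, which in the pig takes place around the 4-cell stage. RNA in the cytoplasm of a donor cell joins this stored pool at fusion.

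Levels are FPKM, fragments per kilobase of gene model and 1000000 mapped fragments, which allow comparison between genes where the gene models hold. Whole fragment numbers were recovered from the FPKM values for all 8603 genes, with 14952784 to 22991067 fragments per library (median 18896560). Between 5931 and 7738 genes per library reached an FPKM of 1. A gene was called higher or lower where log2(FPKM + 1) differed by more than 1 and at least 1 of the libraries compared reached an FPKM of 1, and "rose" and "fell" are used only for such calls.

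The label of these genes was checked first. Donor fibroblast libraries were not analysed here, so how strongly the donor cells expressed the 10 genes, and whether a transcript came from them, was not tested. Of 12 further fibroblast markers only PDGFRA had a row in the table, and it stayed under an FPKM of 1 in all clone libraries from the 1-cell to the 8-cell stage, with 0.751 as its highest value there. The genes are therefore called fibroblast-associated, and no origin is read from them.

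The 3 genes of fibrillar collagen open the account because they moved together. COL1A1 (ENSSSCG00000036135) and COL1A2 (ENSSSCG00000015326) encode both chains of type I collagen, and COL3A1 (ENSSSCG00000016034) encodes the chain of type III collagen. On the Sscrofa11.1 build COL1A1 lies at chr12:26379087-26397180 on the minus strand, COL1A2 at chr9:74174484-74210407 on the plus strand and COL3A1 at chr15:93556914-93595678 on the plus strand. The 250 bases before the RefSeq start of COL1A1 (chr12:26397181-26397430, minus strand) and COL1A2 (chr9:74174234-74174483, plus strand) are printed because these genes ran in parallel, and those of LGALS1 (chr5:10152515-10152764, minus strand) because it ran the other way. Capitals mark CCAAT boxes found on either strand (read ATTGG on the strand printed), the TATAAA box of COL1A2 and the GC box GGGCGG of LGALS1.
COL1A1: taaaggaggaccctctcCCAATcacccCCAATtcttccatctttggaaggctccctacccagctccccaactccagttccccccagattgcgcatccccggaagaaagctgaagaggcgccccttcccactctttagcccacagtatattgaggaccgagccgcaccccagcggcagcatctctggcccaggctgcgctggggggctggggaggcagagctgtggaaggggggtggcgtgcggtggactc
COL1A2: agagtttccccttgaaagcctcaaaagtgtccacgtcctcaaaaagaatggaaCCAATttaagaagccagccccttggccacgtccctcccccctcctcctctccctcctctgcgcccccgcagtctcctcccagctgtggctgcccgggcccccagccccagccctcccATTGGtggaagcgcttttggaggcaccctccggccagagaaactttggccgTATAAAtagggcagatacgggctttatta
LGALS1: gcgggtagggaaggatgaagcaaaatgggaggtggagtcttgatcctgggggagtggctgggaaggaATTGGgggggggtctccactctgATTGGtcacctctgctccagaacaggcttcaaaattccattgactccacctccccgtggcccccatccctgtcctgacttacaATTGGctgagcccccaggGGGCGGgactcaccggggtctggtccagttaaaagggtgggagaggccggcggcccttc
In windows of 300 bases, from 250 before to 50 after the start, CCAAT was present in 5 of the 10 genes and in 35.4% of 19556 protein-coding genes, TATAAA in 1 of 10 and 10.9%, and GGGCGG in 3 of 10 and 50.6%. The AP-1 site TGANTCA and the strict CArG box CCWWWWWWGG, with W for A or T, were found in 0 of the 10 windows. They were present in 6.07% and 1.53% of all windows. CArG-like stretches with another base inside were not counted, and the ACTA2 window holds CCCTATATGG and CCTTGTTTGG. These matches describe the letters of the reference only.

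COL1A1 had 0 fragments in the recipient oocytes. It stood at FPKM 1.79, 3.22 and 3.81 in NT-LW-1C, NT-LW-2C and NT-LW-4C and at 3.66, 2.005 and 2.27 in NT-D-1C, NT-D-2C and NT-D-4C. The 8-cell clones had 0.213 and 0.156, and the highest later clone level was 0.377, in NT-D-MO. In IV-D it read 0.0966 in oocytes, 4.76 in IV-D-1C, 0.0896 in IV-D-2C and 0.630 in IV-D-4C. The 1-cell embryos of all groups held it, and the groups parted at the 2-cell stage.

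COL1A2 had the highest FPKM of the 3 collagens in the early clones, and it was already present in recipient oocytes at 1.40, on 120 fragments. It measured 8.76, 9.20 and 15.1 in the NT-LW libraries from 1-cell to 4-cell and 14.7, 9.56 and 14.5 in the NT-D libraries. IV-D oocytes had 0.834, IV-D-1C 9.31, IV-D-2C 1.40 and IV-D-4C 1.02. At the 8-cell stage NT-LW and NT-D were still at 1.90 and 1.83, against 0.0206 in IV-D, which was 2 fragments.

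COL3A1 gave 1.67, 3.86 and 2.61 in NT-LW and 4.24, 2.27 and 4.10 in NT-D from 1-cell to 4-cell, after 2 fragments in recipient oocytes. IV-D read 0.234 in oocytes, then 4.05, 0.408 and 1.66. Of the 3 collagens it was the one nearest to the clone level in 4-cell IV-D embryos. In the blastocyst pieces the summed FPKM of all 3 collagens was at most 0.191, in NT-LW-TE, and it was 0 in both IV-D pieces.

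The proportion of the type I chains differed between the clone and in vivo libraries of the 1-cell stage. COL1A2 exceeded COL1A1 4.89-fold in NT-LW-1C (95% interval 4.22 to 5.68) and 4.003-fold in NT-D-1C (3.56 to 4.51), on the FPKM scale. The ratio in IV-D-1C was 1.96 (1.74 to 2.20), outside both clone intervals. It also varied between libraries of the same kind, from 2.85 in NT-LW-2C to 6.42 in NT-D-4C, and from 1.61 in IV-D-4C to 15.6 in IV-D-2C. Whether the 1-cell difference belongs to the embryo kind was not tested.

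SPARC, FBN1 and FN1 encode other proteins of the matrix. SPARC (ENSSSCG00000017082, chr16:71368164-71380972, plus strand), a matricellular protein that binds collagen, had 0 fragments in recipient oocytes and 2.33, 2.17 and 2.69 FPKM in NT-LW from 1-cell to 4-cell. NT-D gave 2.08, 1.62 and 3.79. IV-D gave 0.178 in oocytes, 8.16 in IV-D-1C, 0.424 in IV-D-2C and 0 fragments in IV-D-4C. The in vivo zygotes were thus 3.496-fold (NT-LW) and 3.92-fold (NT-D) above the clones for SPARC, and the order was turned by the 4-cell stage. The gene span of an antisense lncRNA, LOC110257252, covers the whole of SPARC. The library kits do not mark strand, so reads of exons shared by both genes could not be told apart. Whether the lncRNA has exons over those of SPARC was not looked at.

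FBN1 (ENSSSCG00000004658, chr1:123102011-123359649, plus strand), the main protein of microfibrils, had the highest level of the 10 genes in both oocyte libraries. It stood at 2.74 in recipient oocytes and 3.69 in IV-D oocytes. NT-LW went through 7.46, 4.86, 4.15, 1.14 and 0.451 from 1-cell to morula and NT-D through 5.25, 3.11, 3.52, 0.694 and 1.93. IV-D went through 2.05, 1.81, 2.80, 0.412 and 0.109. FBN1 fell from 4-cell to 8-cell embryos in every group, and it was 2.55-fold (95% interval 2.24 to 2.91) and 3.63-fold (3.22 to 4.11) higher in NT-D-1C and NT-LW-1C than in IV-D-1C.

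FN1 (ENSSSCG00000016174, chr15:117658158-117737145, minus strand), fibronectin, stayed below an FPKM of 1 in all oocyte and embryo libraries up to the 4-cell stage, from 0.187 in IV-D-OC to 0.899 in NT-LW-4C. The 8-cell embryos had 1.41 (NT-LW), 0.663 (NT-D, after 0.852 in NT-D-4C) and 2.03 (IV-D), and the IT pieces had 9.37, 1.36 and 2.45. The TE pieces had 0.772, 0.0353 and 0.0920, and those of NT-D and IV-D lay below every earlier level of their group. FN1 was higher in IT than in TE by 12.1-fold in NT-LW (95% interval 9.90 to 15.04), 38.6-fold in NT-D (14.9 to 143) and 26.7-fold in IV-D (14.3 to 56.1). NT-LW-IT stood apart, at 6.87-fold over NT-D-IT and 3.82-fold over IV-D-IT.

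ACTA2 (ENSSSCG00000010447, chr14:100868145-100886732, minus strand) encodes smooth muscle actin, the actin of activated fibroblasts. It measured 46.9, 30.7, 25.9, 1.78 and 0.527 in NT-LW from 1-cell to morula and 39.6, 30.6, 20.4, 3.97 and 0.246 in NT-D. Recipient oocytes had 0.186, or 8 fragments. IV-D had 0.416 in oocytes, 4.66 in IV-D-1C, 0.313 in IV-D-2C and 0.7998 in IV-D-4C. ACTA2 was the member with the largest fold between 1-cell clones and in vivo zygotes, 10.1-fold in NT-LW (95% interval 8.66 to 11.8) and 8.50-fold in NT-D (7.29 to 9.96). NT-D-IT held 1.48, on 74 fragments, where NT-LW-IT had 0 fragments. Actin genes share much coding sequence and how shared reads were treated could move fragments between them. ACTA1 stayed at or below 0.154 in the clones up to the 4-cell stage, and ACTG1 was at 48.5 in recipient oocytes.

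S100A4 (ENSSSCG00000006578, chr4:96088102-96091160, plus strand), a small calcium-binding protein known as a fibroblast marker, reached the highest levels of the 10 genes in early clones. It had 0 fragments in both oocyte libraries. NT-LW gave 76.1, 48.2, 114, 18.7 and 5.42 from 1-cell to morula and NT-D gave 63.9, 76.8, 95.3, 23.05 and 1.76. IV-D gave 39.9 in IV-D-1C, 0.120 (2 fragments) in IV-D-2C and 0 fragments in IV-D-4C, IV-D-8C, IV-D-MO and IV-D-IT. S100A4 and ACTA2 together made up 72.9% to 83.0% of the summed FPKM of the 10 genes in the 6 clone libraries from 1-cell to 4-cell, and 52.5% in IV-D-1C. The S100A4 to ACTA2 ratio was 1.62 in NT-LW-1C (95% interval 1.51 to 1.74) and 1.61 in NT-D-1C (1.48 to 1.76), and 8.56 (7.20 to 10.2) in IV-D-1C.

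VIM (ENSSSCG00000011033, chr10:43516441-43526172, plus strand), vimentin, the intermediate filament of mesenchymal cells, came up a further time at the 4-cell stage. It was at 0.0264 in recipient oocytes, at 3.31, 2.49, 8.22, 6.52 and 2.24 in NT-LW and at 4.02, 1.73, 9.72, 1.98 and 2.81 in NT-D from 1-cell to morula. IV-D had 7.02 in IV-D-1C, 0.984 in IV-D-2C and 1.84 in IV-D-4C. VIM rose from the 2-cell to the 4-cell stage in both clone groups, 5.62-fold in NT-D (95% interval 4.65 to 6.85) and 3.30-fold in NT-LW (2.82 to 3.87), which took it to 242% and 248% of its 1-cell level.

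LGALS1 (ENSSSCG00000033854, chr5:10149069-10152514, minus strand), galectin-1, a lectin that binds beta-galactosides, ended as the most abundant of the 10 genes in all groups. It had 0 fragments in recipient oocytes and low levels at the 1-cell stage: 2.17 (NT-LW), 2.51 (NT-D) and 4.45 (IV-D). The 8-cell embryos had 96.8, 85.4 and 144, the IT pieces 273, 407 and 239, and the TE pieces 210, 315 and 458. Between 2-cell and 4-cell embryos LGALS1 rose 9.44-fold in NT-LW, 3.89-fold in NT-D and 15.6-fold in IV-D, and again to the 8-cell stage by 9.75-fold, 20.3-fold and 12.9-fold. The gene span of an antisense lncRNA, LOC110260647, overlaps 72 exonic bases of LGALS1. The gene model behind the deposited FPKM is 2910 bp, 5.61 times the longest RefSeq transcript. Levels of LGALS1 are thus understated against the other genes by that model, while ratios between libraries do not depend on it. The models of ACTA2, VIM, S100A4 and FN1 were 1.69, 1.42, 1.20 and 0.849 times that length, and those of the other members 0.928 to 1.03 times. Ratios between genes, such as S100A4 to ACTA2, therefore depend on the models used.

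**Figure D1:**
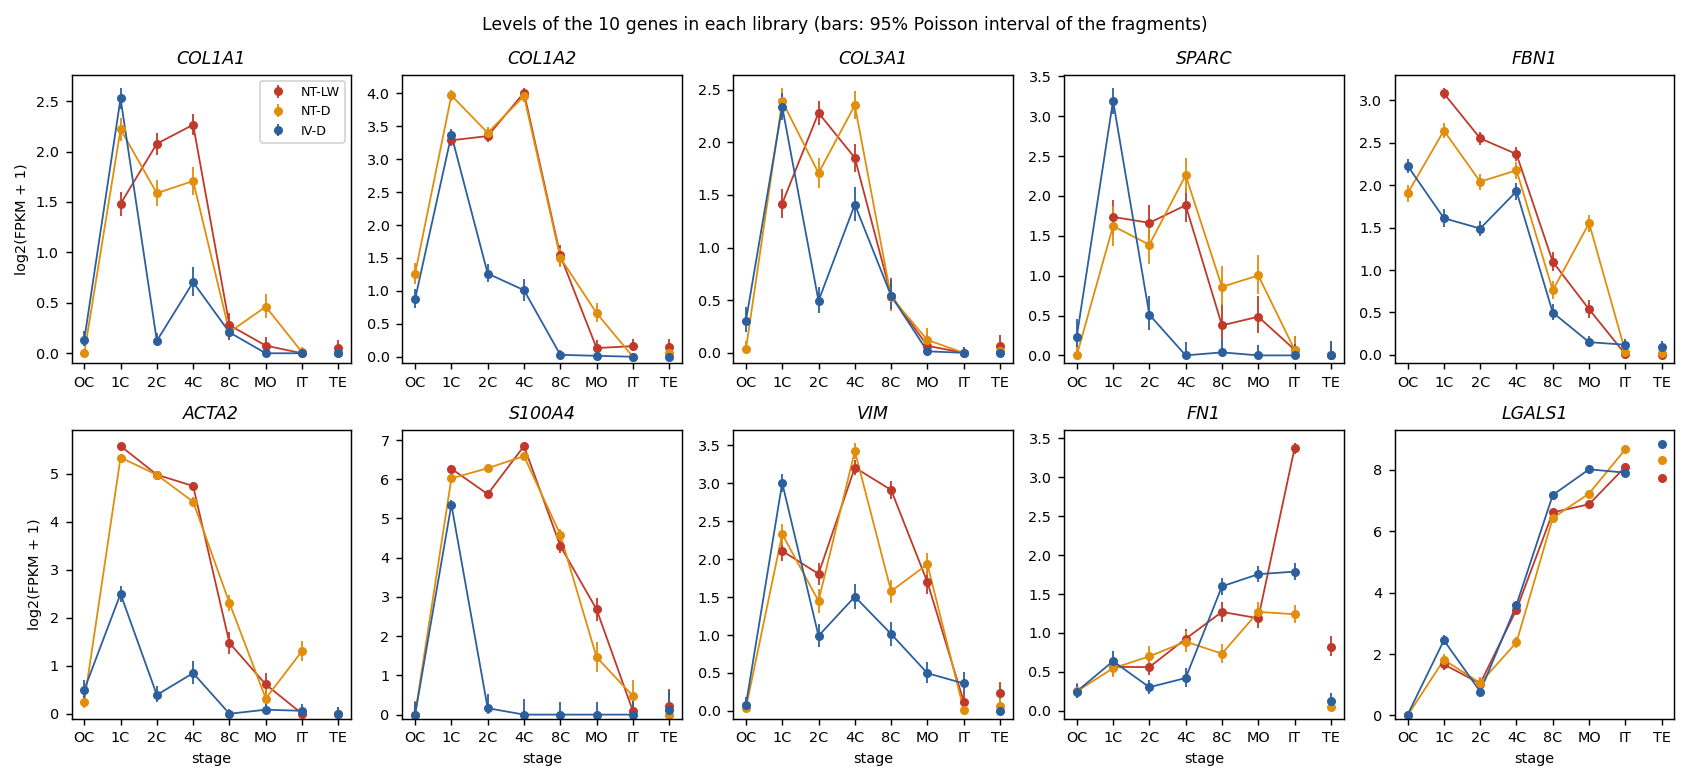
Level of each of the 10 genes as log2(FPKM + 1) on the vertical axis against stage on the horizontal axis, for NT-LW, NT-D and IV-D, 1 library per point; bars are 95% Poisson intervals of the fragments, lines join stages of a group, TE is left unjoined, and the recipient oocyte is drawn with NT-D. Most genes stand high in both clone groups up to 4C and, in IV-D, at 1C only, while LGALS1 climbs in all groups and stands at 210 to 458 FPKM in TE.

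The step from the oocyte to the 1-cell stage was asked first, since fusion adds a whole donor cell and fertilization adds a sperm. In the 2 comparisons of 1-cell clones with recipient oocytes, members were called higher in 17 and lower in 0 of 20 cases, 18 of which reached an FPKM of 1, where 7.20% and 1.39% of all tested genes were called higher and lower. NT-LW-1C had 9 members higher (7.29% of all tested genes, with 1.22% lower) and NT-D-1C had 8 (7.11%, with 1.56% lower). FBN1 missed the call in NT-D, at 1.91-fold (95% interval 1.71 to 2.15), and FN1 was untested in both. A call lower needs an FPKM over 1 in the oocyte library, which only FBN1 and COL1A2 had. The other members could thus not be called lower, and both comparisons share NT-D-OC. The 10 genes had a median difference of 1.70 (NT-LW) and 2.26 (NT-D) on the log2 scale, against 0.14 and 0.19 over all 8603 genes.

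Single genes gave large folds at this step. ACTA2 was 253-fold higher in NT-LW-1C than in recipient oocytes (95% interval 128 to 586) and 213-fold in NT-D-1C (108 to 495). For genes with 0 fragments in oocytes the fold was taken against 3 fragments, which made S100A4 at least 334-fold higher in NT-LW-1C and at least 280-fold in NT-D-1C, and COL1A1 at least 68.6-fold and at least 140-fold. COL1A2, which oocytes held, was higher by 6.28-fold (5.18 to 7.66) and 10.5-fold (8.69 to 12.8).

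The fibroblast-associated genes were also higher after this step in vivo. From IV-D-OC to IV-D-1C 8 members were called higher and 0 lower of 9 tested, where 13.7% and 7.64% of all tested genes were called. Only FBN1 passed an FPKM of 1 in IV-D-OC, so the other members could not be called lower. The median difference over the 10 genes was 2.41, against 0.08 over all genes. S100A4 was at least 205-fold higher, COL1A1 49.3-fold (95% interval 28.6 to 93.3), SPARC 45.9-fold (21.9 to 115) and ACTA2 11.2-fold (7.11 to 18.5), while FBN1 read 2.05 after 3.69. In such bulk libraries more cells or transcripts per cell of a contributing type cannot be told apart. These transcripts were thus measured in 1-cell embryos of both kinds, with and without a fused fibroblast. Zygotes were flushed from the sow, and markers of cells of the mother were looked at beside this result. Of the cumulus or granulosa cell list 2 of 13 genes had rows, HAS2 at 0 in IV-D-1C and GREM1 at 2.12, after 1.37 in IV-D-OC. The defining markers FSHR, CYP19A1 and AMH had no row, of the oviduct and uterus list 0 of 6 genes had one, and the 1 blood gene of 5 in the table, HBB, was at 0.135. Their part in the result was not tested.

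**Figure D2:**
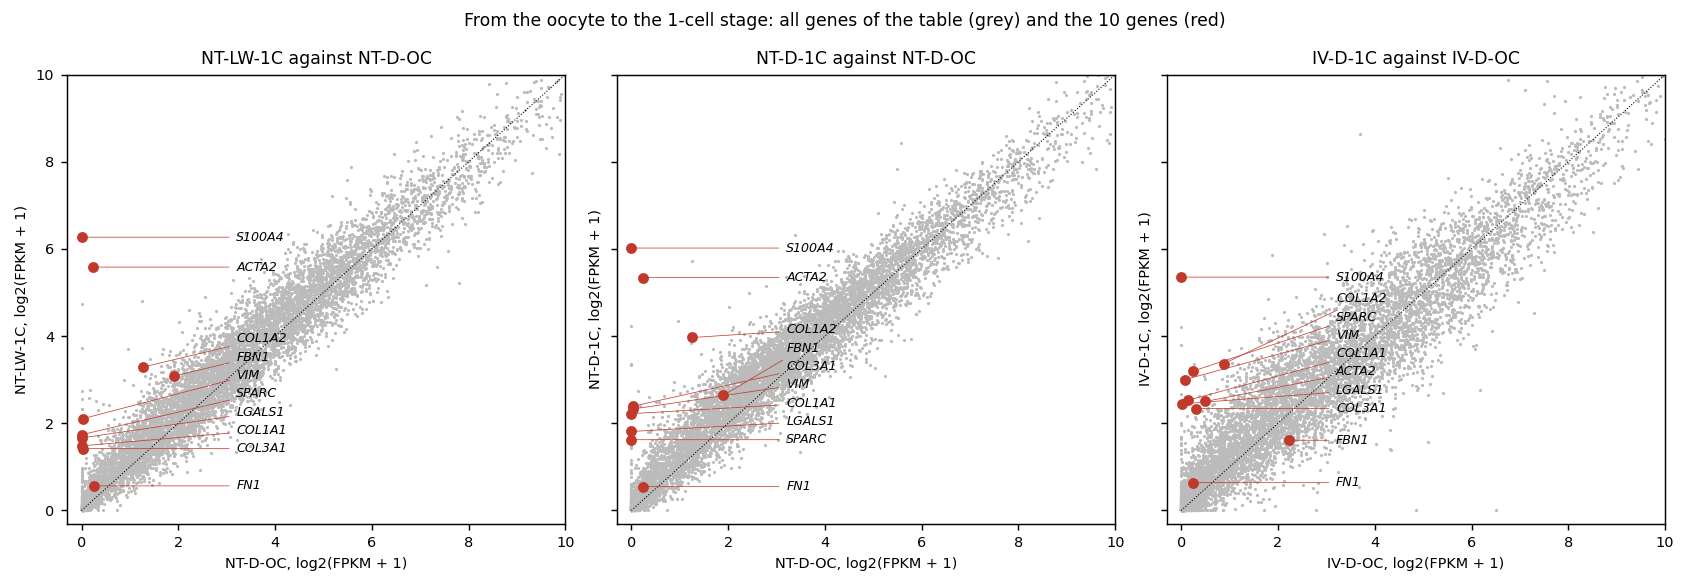
Log2(FPKM + 1) in 1-cell embryos (vertical) against the oocyte library (horizontal) for NT-LW, NT-D and IV-D; grey points are the genes of the table, red points the 10 named genes, the dotted line marks equal levels, and genes above 10 on either axis fall outside. S100A4 and ACTA2 lie far above the cloud in both clone panels, at 5.58 or higher in NT-LW-1C, and S100A4 does so in IV-D, where ACTA2 lies among the other members.

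At the 1-cell stage itself 3 of 9 tested members were called between NT-D clones and in vivo zygotes and 4 of 9 between NT-LW clones and zygotes, and these counts depended on the setting. NT-D-1C had 2 members higher (FBN1 and ACTA2) and 1 lower (SPARC) than IV-D-1C, where 18.5% and 3.44% of all tested genes were called higher and lower. NT-LW-1C had the same 2 higher and 2 lower (COL1A1 and SPARC), against 20.8% and 4.12%. With median-ratio scaling of the libraries the calls were 1 higher and 3 lower in NT-D-1C, where FBN1 was lost and VIM and LGALS1 were added, and 2 higher and 5 lower in NT-LW-1C. A pseudocount of 0.1 also gave 2 higher and 5 lower in NT-LW-1C, with COL3A1, VIM and LGALS1 added, and rescaling to equal sums gave 3 higher and 1 lower. COL1A1 was 2.66-fold lower in NT-LW-1C than in IV-D-1C. COL3A1 stood at 1.05-fold (95% interval 0.895 to 1.22) and COL1A2 at 1.57-fold of the zygote level in NT-D-1C. NT-LW-1C and NT-D-1C had median differences of -0.43 and -0.02 over the 10 genes, against 0.23 and 0.31 over all genes.

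The embryo kinds parted between the 1-cell and the 2-cell libraries. Libraries of successive stages hold different embryos, and the paper pooled in vivo embryos of a stage from a pregnant sow. Stage, sow and pool thus cannot be told apart at this or any other step. From IV-D-1C to IV-D-2C 8 of 9 tested members fell and 0 rose, where 24.6% of all tested genes fell and 6.59% rose. S100A4 fell 331-fold (95% interval 91.1 to 2741), from 478 fragments to 2, COL1A1 53.2-fold, SPARC 19.2-fold, ACTA2 14.9-fold, COL3A1 9.94-fold, VIM 7.13-fold, COL1A2 6.65-fold and LGALS1 6.20-fold, and FBN1 was not called. In both clone groups 0 of 9 tested members rose or fell at this step. All tested genes fell in 26.5% and rose in 2.45% of cases in NT-D, and in 4.31% and 2.83% in NT-LW. Few genes of any kind were called in NT-LW, so the 0 there says little about these members. VIM and LGALS1 were called lower in NT-D-2C with a pseudocount of 0.1 or libraries rescaled to equal sums, and COL3A1 higher in NT-LW-2C with that pseudocount. As a share of the 1-cell level, S100A4 stood at 120% in NT-D-2C (95% interval 109 to 132) and 63.3% in NT-LW-2C (57.5 to 69.6), and at 0.302% in IV-D-2C (0.0365 to 1.10). ACTA2 stood at 77.4% and 65.4% in the clones and at 6.71% (3.82 to 11.04) in IV-D.

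**Figure D3:**
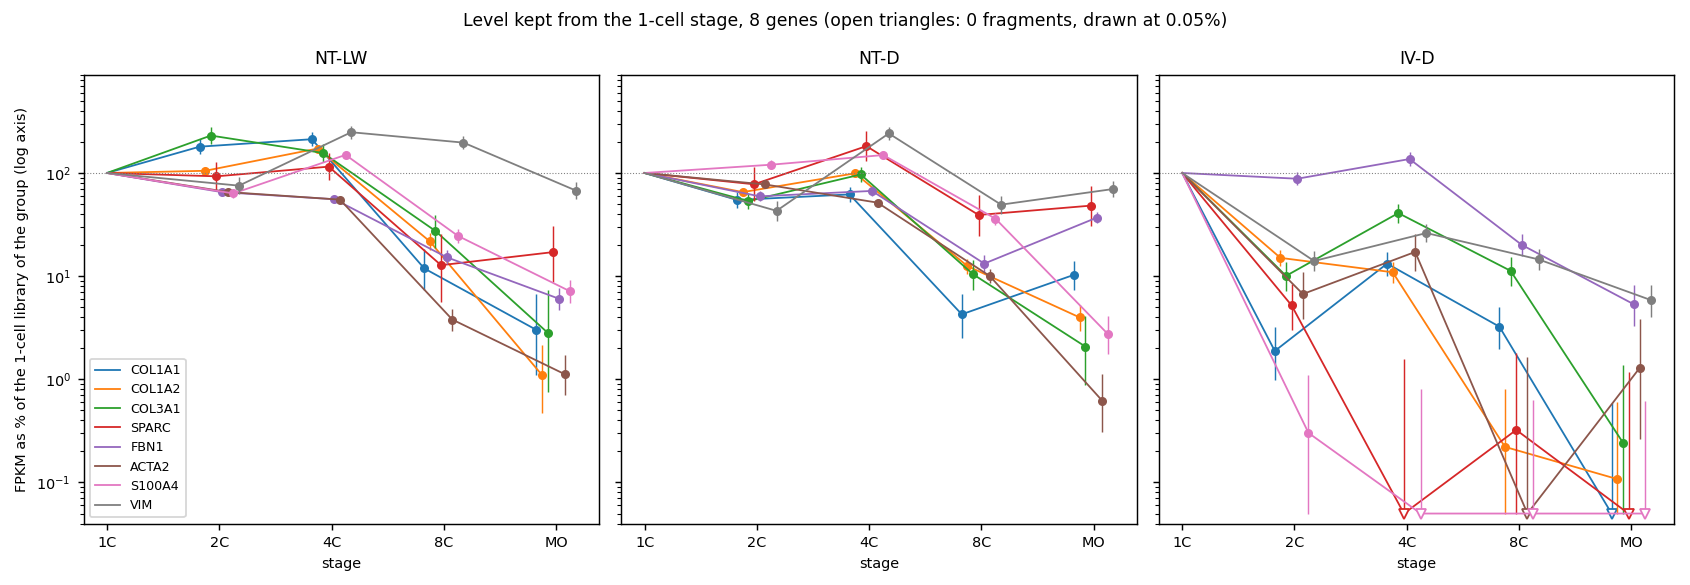
FPKM as a percentage of the 1-cell library of the same group (vertical, log axis) from 1C to MO, for 8 genes (FN1, under an FPKM of 1 at 1C, and LGALS1, which climbs, are left out); bars are 95% exact binomial intervals and open triangles are libraries with 0 fragments, drawn at 0.05%. In both clone panels the 8 genes stay at 43.0% or more up to 4C, and in IV-D all of them but FBN1 are at 15.04% or less at 2C.

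Several members were higher in 2-cell and 4-cell clones than in IV-D embryos. At the 2-cell stage 5 members were higher and 0 lower in NT-D (all tested genes: 6.48% and 1.90%), and 7 higher and 0 lower in NT-LW (34.7% and 3.51%). Only COL1A2 and FBN1 passed an FPKM of 1 in IV-D-2C, so the other members could not be called lower. The 10 genes had a median difference of 1.05 (NT-D) and 1.47 (NT-LW), against 0.19 and 0.48 over all genes. In NT-LW the scaling of the libraries weighed on this comparison. Its median over all tested genes was 0.66 as deposited and -0.10 with median-ratio scaling. ACTA2 was 98.0-fold higher in NT-D-2C (95% interval 61.0 to 169) and 98.2-fold in NT-LW-2C (61.1 to 169), and COL1A1 22.4-fold (12.8 to 42.7) and 36.0-fold (20.8 to 68.1). S100A4, with 2 fragments in IV-D-2C, was 638-fold (176 to 5272) and 400.0-fold (110 to 3309) higher. Stored oocyte transcripts moved the same way in NT-LW-2C: 7 of 8 oocyte genes in the table, ZP2, ZP3, ZP4, GDF9, BMP15, ZAR1 and MOS, were higher than in IV-D-2C, against 2 of 8 in NT-D-2C. The blood gene HBB stood at 9.82 in IV-D-2C, at 0 in NT-D-2C and at 0.0555 in NT-LW-2C. The part of these genes in the result was not tested.

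At the 4-cell stage 6 members were higher in each clone group, COL1A1, COL1A2, SPARC, ACTA2, S100A4 and VIM, where 9.74% of all tested genes were higher in NT-D and 10.8% in NT-LW. LGALS1 was lower in NT-D by 2.66-fold, 1 of 9 tested members against 13.2% of all tested genes, and 0 members were lower in NT-LW against 9.43%. S100A4 was at least 364-fold higher in NT-D-4C and at least 435-fold in NT-LW-4C. ACTA2 was 25.5-fold (95% interval 17.7 to 38.1) and 32.4-fold (22.6 to 48.2) higher, COL1A2 14.3-fold (11.3 to 18.3) and 14.9-fold (11.8 to 19.0), and VIM 5.29-fold (4.35 to 6.49) and 4.48-fold (3.68 to 5.48). COL3A1, at 2.48-fold and 1.58-fold, and FBN1, at 1.25-fold and 1.48-fold, were not called. The oocyte genes ZP3, ZP4, GDF9, BMP15 and OOEP were also higher in both clone groups at this stage, 5 of 8 in the table, and MOS was lower in NT-LW. HAS2, a gene of cumulus cells, was at 18.8 in NT-LW-4C, 5.21 in NT-D-4C and 2.38 in IV-D-4C, and was called in NT-LW. The part of these genes in the result was not tested.

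**Figure D4:**
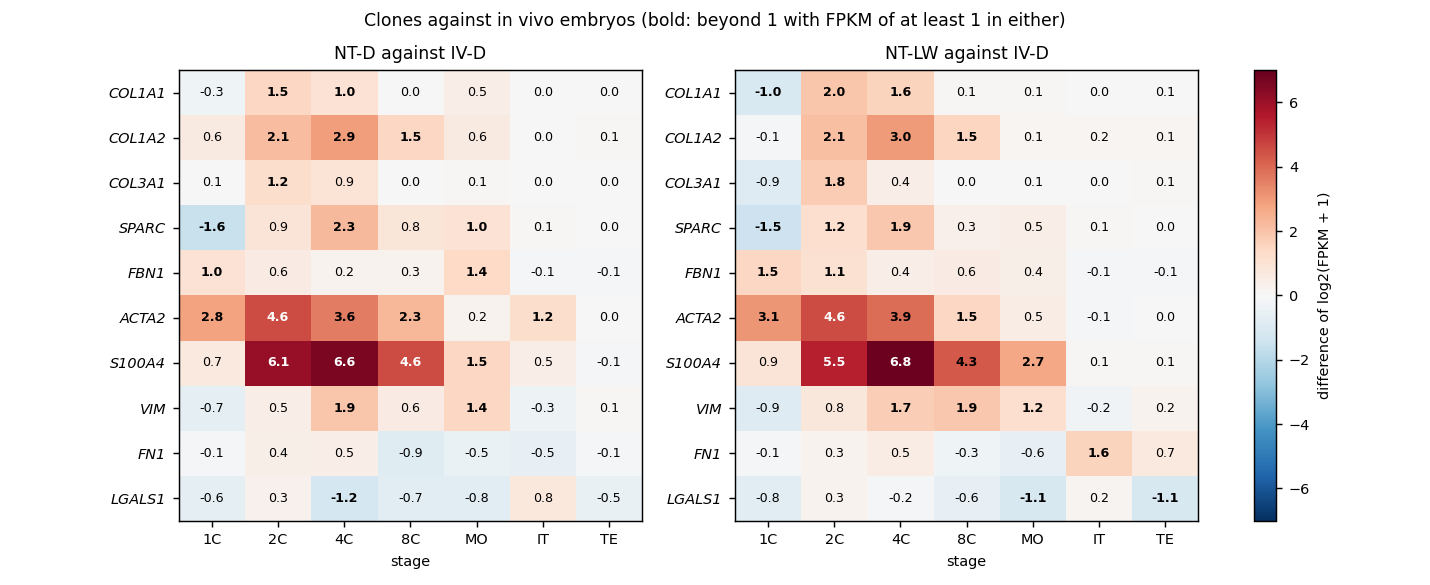
Difference of log2(FPKM + 1) between clones and IV-D embryos for each gene (rows) and stage (columns), NT-D on the left and NT-LW on the right; red is higher in clones, blue lower, and bold marks differences called. The strongest red lies at 2C and 4C for S100A4 and ACTA2, up to 6.85 for S100A4 in NT-LW-4C, and the blue differences called are those of SPARC and COL1A1 at 1C and of LGALS1 later.

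VIM and LGALS1 rose from the 2-cell to the 4-cell stage in NT-D, S100A4, VIM and LGALS1 in NT-LW, and LGALS1 in IV-D. These were 2 of 9, 3 of 9 and 1 of 5 tested members, where 17.3%, 16.5% and 34.4% of all tested genes rose. At this step 0 members fell, where 8.36% (NT-D), 19.9% (NT-LW) and 12.3% (IV-D) of all tested genes fell. Only COL1A2 and FBN1 passed an FPKM of 1 in IV-D-2C, so no other member could fall there. The 4-cell to 8-cell step brought the fall in clones. In NT-D 8 of 9 tested members fell and LGALS1 rose, where 28.7% of all tested genes fell and 31.4% rose. In NT-LW 7 of 10 fell and LGALS1 rose, against 25.6% and 28.1%, and VIM and FN1 were not called. S100A4 fell 4.13-fold in NT-D and 6.09-fold in NT-LW, ACTA2 5.15-fold and 14.5-fold, and COL1A2 7.93-fold in NT-D. In IV-D embryos 1 of 6 tested members fell at this step, FBN1, and FN1 and LGALS1 rose, where 28.1% of all tested genes fell and 35.0% rose. This count of 1 lower became 3 with a pseudocount of 0.1, by COL1A2 and COL3A1, and 4 with libraries rescaled to equal sums, by ACTA2 as well.

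Fewer members were called at the later stages. In 8-cell embryos COL1A2, ACTA2 and S100A4 were higher in both clone groups than in IV-D, and VIM in NT-LW too: 3 of 6 tested members in NT-D and 4 of 7 in NT-LW, against 10.8% and 16.3% of all tested genes, and 0 members were lower, against 17.4% and 17.3%. Only FN1, VIM and LGALS1 passed an FPKM of 1 in IV-D-8C, so the other members could not be called lower there. FN1 and LGALS1 were called lower in NT-D-8C with libraries rescaled to equal sums, and FN1 with a pseudocount of 0.1. S100A4 was at least 114-fold higher in NT-D-8C and at least 92.5-fold in NT-LW-8C. In morulae 4 of 6 tested members were higher in NT-D (SPARC, FBN1, S100A4 and VIM) and 0 lower, against 18.7% and 3.88% of all tested genes, and in NT-LW 2 of 4 were higher (S100A4 and VIM) and LGALS1 lower, against 11.6% and 4.07%. S100A4 stood there at 1.76 in NT-D, on 24 fragments, and at 5.42 in NT-LW, on 69, while IV-D morulae had 0 fragments. In the IT pieces ACTA2 was higher in NT-D (1 of 3 tested members, against 9.47% of all tested genes) and FN1 in NT-LW (1 of 2, against 8.70%), with 0 lower against 15.4% and 13.7%. Of the TE pieces LGALS1, the 1 member tested there, was lower in NT-LW (10.2% of all tested genes lower, 6.26% higher) and not called in NT-D (4.23% and 3.13%). In the blastocyst pieces 1 of the 8 genes other than FN1 and LGALS1 passed an FPKM of 1, ACTA2 in NT-D-IT. In IV-D-MO and IV-D-IT only FN1 and LGALS1 passed that level, so no other member could be called lower in clones there.

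Across the 7 stages from 1-cell to TE, members were called higher than in IV-D in 21 and lower in 2 of 43 tested cases in NT-D, and higher in 22 and lower in 4 of 41 in NT-LW. All tested genes gave 11.2% higher and 8.65% lower in NT-D and 15.6% and 8.97% in NT-LW. With median-ratio scaling of the libraries the calls in NT-D were 20 higher and 5 lower. The comparisons of both clone groups share the IV-D libraries, and the stages of a group follow one another, so these cases are not independent.

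NT-LW and NT-D clones were compared stage by stage. Members were called higher in NT-LW in 4 and lower in 2 of 44 tested cases, 13.6% in all, where 5.53% and 4.71% of all tested genes were called, 10.2% in all. At the 1-cell and 2-cell stages 0 of 9 tested members were called, where 1.70% and 15.5% of all tested genes were higher in NT-LW and 4.69% and 0.647% lower, and in TE 0 of 1, against 4.60% and 6.84%. The calls were LGALS1 at the 4-cell stage (2.36-fold higher in NT-LW, 95% interval 1.99 to 2.80), VIM at the 8-cell stage (3.29-fold, 2.73 to 3.96), S100A4 in morulae (3.08-fold, 1.91 to 5.13), FN1 in IT, and, lower in NT-LW, FBN1 in morulae and ACTA2 in IT. With median-ratio scaling the calls of LGALS1 and FBN1 were lost and S100A4 was lower in NT-LW-2C. The shares of all tested genes called higher and lower were 3.42% and 0.972% in 4-cell embryos, 3.99% and 2.15% in 8-cell embryos, 7.02% and 14.1% in morulae, and 2.54% and 2.70% in IT. With 1 library a condition, donor and pool cannot be told apart.

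Between both oocyte libraries no member was called. FBN1 and COL1A2 alone reached an FPKM of 1 in either, 0 of these 2 were called, and 13.3% and 1.51% of all tested genes were called higher and lower in NT-D-OC. The blastocyst pieces differed in FN1 in all groups and in ACTA2 in NT-D, so 4 members' cases were higher and 0 lower in IT than in TE of 7 tested, where 9.27% and 3.89% of all tested genes were called. With median-ratio scaling 1 further case was lower in IT. Only LGALS1 passed an FPKM of 1 in the TE pieces as deposited, so no other member could be called lower in IT.

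Over the successive steps from oocyte to blastocyst, members rose in 11 and fell in 10 of 36 tested cases in IV-D, rose in 13 and fell in 17 of 57 in NT-D, and rose in 15 and fell in 14 of 52 in NT-LW. All tested genes rose and fell in 17.8% and 17.1%, 15.7% and 21.9%, and 13.9% and 19.1% of cases.

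The patterns of the genes over the 23 libraries were compared by Pearson's r of log2(FPKM + 1), as a description only, since libraries of a group share donor and oocyte source and libraries of a stage share developmental time. Among genes with an FPKM of at least 10 somewhere, COL1A1 was most like COL1A2 (0.933) and ACTA2 (0.870), COL1A2 like ACTA2 (0.930) and JAG1 (0.919), and COL3A1 like COL1A2 (0.929) and ACTA2 (0.861). COL1A1 and COL3A1, which both stayed under that level, had an r of 0.958 with each other. SPARC was most like COL1A2 (0.883) and S100A4 (0.864), ACTA2 like COL1A2 (0.930) and S100A4 (0.930), S100A4 like ACTA2 (0.930) and COL1A2 (0.914), and VIM like S100A4 (0.842) and PPP3R1 (0.817). Members of this set were among the nearest to 7 of the 10 genes, out of 5645 or 5646 candidates. The other 3 genes followed other company: FBN1 was most like FSTL4 (0.988) and JAK1 (0.986), LGALS1 like the ribosomal protein genes RPS15 (0.988) and RPL23 (0.984), and FN1 like SGIP1 (0.797) and SPIC (0.773). FBN1 and LGALS1 ran opposite to each other, with an r of -0.882. Of the members only COL1A2, ACTA2, S100A4 and LGALS1 reached an FPKM of 10 and could be named as nearest. By Spearman's rho the nearest genes differed for 9 of the 10 members. The 10 genes were chosen with earlier results of these data known, so their likeness is no independent finding.

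Other genes of fibroblasts and of the matrix were counted from lists. Of 30 genes for the fibroblast surface and contractile apparatus 15 had rows. From recipient oocyte to 1-cell stage 7 of these were higher and 1 lower in NT-D (median difference 0.92 on the log2 scale), 5 higher and 1 lower in NT-LW (0.70), and 6 were higher and 0 lower in vivo (0.93). In both clone groups TPM2, CALD1, CAV1, S100A6 and ANXA1 were among the higher, and IGFBP7 was the lower gene. The shares of all tested genes at this step were 7.11% higher and 1.56% lower, 7.29% and 1.22%, and 13.7% and 7.64%. At the 2-cell stage 3 of 11 tested were higher and 1 lower in NT-D than in IV-D, against 6.48% and 1.90% of all tested genes, and 6 of 12 higher and 1 lower in NT-LW, where the share of all tested genes called higher was itself 34.7%, and lower 3.51%. At the 4-cell stage 9 of the 15 were higher in each clone group than in IV-D and 0 lower (median 1.12 in NT-D and 1.13 in NT-LW, against 0.00 and 0.04 over all genes, of which 9.74% and 10.8% of those tested were higher): MYL9, CNN2, TPM2, CALD1, CAV1, FSTL1, S100A6, ANXA1 and CD63. CAV1, the coat protein of caveolae, went from 0 in recipient oocytes to 3.99 in NT-LW-1C and 1.81 in NT-D-1C, and in IV-D from 6.93 in 1-cell to 0.136 in 2-cell embryos. ANXA1, ANXA2 and CD63 were the most abundant of this list and stood high in the blastocyst, at 822, 2968 and 901 FPKM in IV-D-TE.

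Matrix genes outside the 10 members were counted at the step from oocyte to 1-cell embryo, with the same shares of all tested genes beside them. Of 19 further interstitial collagens only COL11A1 and COL14A1 had rows, at 27.0 and 15.5 in recipient oocytes, and 0 were called from oocyte to 1-cell stage in any group. Of 31 genes of collagen processing 12 had rows, and 0 were called at that step in NT-D, 1 in NT-LW and 1 in IV-D. PLOD2 and PCOLCE2 were at 21.2 and 125 in recipient oocytes, while PPIB was at most 1.03 up to the 4-cell stage and 6.64 to 13.6 in 8-cell embryos. Of 42 matrix glycoproteins 11 had rows, and MFAP5 was higher at that step in all groups and THBS1 in NT-D. In vivo 4 of 7 tested matrix glycoproteins were higher (MFAP5, THBS4, LTBP1 and FBLN5) and 1 was lower (FBLN1). VCAN was at 101 in recipient oocytes, and CCN2 reached 62.8 in NT-LW-4C and 65.0 in NT-D-4C, against 3.37 in IV-D-4C.

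The remaining lists were counted at the step to the 1-cell clone. Their most abundant genes are those with the highest FPKM in any library. All tested genes were higher in 7.11% (NT-D) and 7.29% (NT-LW) of cases, and lower in 1.56% and 1.22%. In vivo the same lists gave 3 integrins and receptors, 3 other S100 genes, 2 other intermediate filament genes and 2 other actins higher, 2 proteases higher and 1 lower, and 1 oocyte and 1 trophectoderm gene higher, against 13.7% higher and 7.64% lower of all tested genes. Of integrins and matrix receptors (12 of 26 in the table, with ITGA2, ITGB1 and SDC2 the most abundant) ITGA10 was higher in both clone groups. Of basement membrane genes (5 of 22, with LAMB1, LAMC1 and NID2 the most abundant) 0 were called in clones and 2 were higher in vivo. Of matrix proteases and inhibitors (10 of 28, with SERPINE2, CTSL and ADAM9 the most abundant) 1 was higher in NT-LW and 0 in NT-D. Of the other S100 genes (5 of 18, with S100A10, S100A11 and S100A14 the most abundant) S100A6 and S100A10 were higher in both clone groups. In NT-LW-1C and NT-D-1C 3 of the other S100 genes and 2 of the other actins reached an FPKM of 1. The calls in these small S100 and actin lists thus lay above the shares of all tested genes. Other galectins (5 of 9, with LGALS2, LGALS3 and LGALS4 the most abundant) had 0 calls, other intermediate filament genes (8 of 22, with KRT8, KRT18 and KRT10 the most abundant) had 1 in NT-LW, and of the other actins (3 of 5) ACTB was higher in both groups and ACTG1 in NT-D. Mesenchymal transition factors (7 of 18, with SNAI1, CDH1 and SMAD2 the most abundant) had 1 call in NT-LW and 0 in NT-D. The marker lists read as follows at the same step: oocyte genes (8 of 10, with ZP4, BMP15 and OOEP the most abundant) gave 0 higher and 1 lower in NT-D and 2 higher and 0 lower in NT-LW, and trophectoderm (7 of 11, with KRT8, KRT18 and DAB2) and inner cell mass genes (4 of 7, with NANOG, KLF17 and GATA6) gave 0 calls in both.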

How the data were processed

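RNA of 23 libraries had been turned into cDNA with SMART-Seq v4 and sequenced as paired-end reads. Per the submitters' processing notes, HISAT2 2.0.4, HTSeq 0.9.1, DESeq and the Sscrofa11.1 build were used. The authors deposited FPKM values for 8603 genes, and how these genes were chosen is not given in the sources used here. The name of the table refers to differentially expressed genes, so shares of all tested genes are shares of a selected set. Whole fragments were recovered from the FPKM steps of each gene and library (all 8603 genes, 14952784 to 22991067 fragments per library, tested on simulated data). They gave exact 95% Poisson intervals for levels and exact binomial (Clopper-Pearson) intervals for ratios. A library with 0 fragments was set to 3 fragments for a fold, so "at least" marks that setting and is not the limit of a 95% interval. PCR copies are not independent molecules, so intervals cover counting error only. Calls needed a difference over 1 in log2(FPKM + 1), which understates changes of low genes, and an FPKM of 1 in either library. A gene under an FPKM of 1 in the library compared against could thus not be called lower. With 1 library per condition no difference at a stage could be tested, and a fit of group and stage over all libraries was not run. The 10 genes, the 18 gene lists and the rules were chosen with earlier results of these data known. Named were the 10 genes, the 3 most abundant genes of each list and the 2 genes most like each member by Pearson's r. Any other gene named from a list was picked with its values in view. Computations ran in Python 3.11.15 with pandas 2.3.3 and numpy 2.4.6, intervals in scipy 1.17.1 and plots in matplotlib 3.10.9. Promoter bases were read from the RefSeq Sscrofa11.1 genome. Results were recomputed with 0.1 as pseudocount, 5 or no minimum FPKM, rescaled sums, median-ratio scaling, calls by the counting interval, and Spearman's rho.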

Additional observations from a re-analysis of the deposited data

How the results depend on the processing

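With a minimum FPKM of 5 in place of 1, fewer cases could be called: 7 (17 before) from recipient oocyte to 1-cell clones, 4 (8) from in vivo oocyte to 1-cell, 12 (23) between NT-D and IV-D, 16 (26) between NT-LW and IV-D, 10 (21), 12 (30) and 17 (29) over the successive steps of IV-D, NT-D and NT-LW, and 1 (4) between IT and TE. COL1A1 and COL3A1 stayed below that minimum in all 23 libraries, at 4.76 and 4.24 at most. Under the other alternatives these totals, higher and lower calls together, stayed within 1.5 times, but single comparisons did not: of 46 comparisons, the count of higher or of lower members moved by more than 1.5 times in 13 with a pseudocount of 0.1, 11 with rescaling to equal sums, 14 with median-ratio scaling and 8 with calls by the counting interval. Dropping the minimum changed 0 comparisons, since a difference over 1 with a pseudocount of 1 already needs an FPKM over 1. In all 46 comparisons 0 calls turned into a call in the other direction. The split for NT-LW against IV-D, 22 higher and 4 lower, became 24 and 7 with a pseudocount of 0.1 and 19 and 6 with median-ratio scaling, and that for NT-LW against NT-D, 4 and 2, became 4 and 5 with that pseudocount and 2 and 3 by the counting interval. Median-ratio scaling gave 20 higher and 5 lower for NT-D against IV-D (21 and 2 before) and 4 higher and 1 lower for IT against TE (4 and 0 before). Over 17 comparisons it shifted the median of all tested genes by -0.77 to 0.18 on the log2 scale, over 0.1 in 12 of them, and rescaling to equal sums shifted it by -0.25 to 0.30, over 0.1 in 11. By Spearman's rho the most similar genes differed for 9 of the 10 members. Within a stage no paired analysis was possible because each condition has 1 library. The conditions compared share only 1 replicate number, and no replicate could be left out. Pairing the groups by stage, which takes the stages of a group as its replicates, was not run. Low fragment numbers limit the collagen, SPARC and late S100A4 ratios.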

Other observations

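A wider search, defined after the values were seen, asked which genes shared the early course of the fibroblast-associated genes, up to 4-cell clones. Of the 8603 genes 72 (0.837%) were under an FPKM of 1 in both oocyte libraries and at 1 or more in all 6 clone libraries from the 1-cell to the 4-cell stage. The 72 included 7 of the 10 members: COL1A1, COL3A1, SPARC, ACTA2, S100A4, VIM and LGALS1. Of these genes 35 were also at 1 or more in IV-D-1C, all 7 members among them. In 17 of the 72 both IV-D-2C and IV-D-4C were under 1, which held for COL1A1, SPARC, ACTA2 and S100A4, and for CAV1. Only 4 of the 72 were also under 1 in all clone morula, IT and TE libraries, COL1A1 and COL3A1 among them. Others stood high later, such as S100A6, at 70.1 in NT-D-IT. Ranked by their lowest level in the 6 clone libraries, S100A4 (48.2) and ACTA2 (20.4) led the 72, followed by S100A6 (11.2), another calcium-binding S100 protein, and SELENOM (10.4), a selenoprotein of the endoplasmic reticulum.

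The S100A4 to ACTA2 ratio moved during cleavage in the clones. It was 1.62 in NT-LW-1C and 1.61 in NT-D-1C, 1.57 (95% interval 1.43 to 1.72) and 2.51 (2.31 to 2.72) at the 2-cell stage, 4.40 (4.08 to 4.75) and 4.67 (4.24 to 5.14) at the 4-cell stage, and 10.5 (7.98 to 13.96) and 5.81 (4.83 to 7.01) at the 8-cell stage. The ratio was thus higher in 8-cell than in 1-cell clones of both groups, with intervals that do not overlap.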
